A study of Mus musculus with 31 samples.

Results

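Basal cells sorted from the mammary glands of mice lacking *Myc* in the basal layer were compared with basal cells of control mice. The arrays were chosen by sample title, which gave 6 of the 31 arrays of the series, 3 of control and 3 of *Myc*-deficient basal cells. Mice labelled K5creMycL/L carry conditional (floxed) *Myc* alleles and a Cre recombinase driven by the keratin 5 promoter, which is active in the basal layer of the mammary epithelium and other stratified epithelia. The control mice are labelled only as controls, and neither group is labelled as carrying the K5ΔNβcat transgene that the tumor arrays of the series carry. The labels give the strain as C57BL6, while the study's methods describe a mixed 129SV/C57BL6 background. Each array held RNA of an independent pool of several mice, and none of the sources used here gives their age. The cells had been taken as CD24+/CD49f high by flow cytometry, and their RNA was amplified with NuGEN kits and hybridised to Affymetrix Mouse Genome 430 2.0 arrays. Pools are named by group and by the number in their labels.

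Myc is a transcription factor that pairs with Max and binds the E-box, the DNA word CACGTG, near the starts of many genes. In growing cells it is known for raising the output of genes for ribosome assembly, nucleotide synthesis, mitochondrial function and cell division, and for repressing others through partners such as Miz1 (*Zbtb17*). Mammary basal cells are the contractile, laminin-bound outer layer of the epithelium, and this layer holds cells able to rebuild a gland on transplantation.

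The targeted gene was lowest in the pools labelled as deficient. The MAS5 signal of *Myc*, a background-corrected intensity scaled to the same target on every array, was 1479, 1677 and 1869 in control pools 1 to 3. It was 141, 428 and 42.3 in *Myc*-deficient pools 1 to 3. The groups did not overlap, and the signals of the deficient pools spanned a wide range, with pool 2 highest and pool 3 lowest. On the log2(signal + 16) scale used throughout, the difference, *Myc*-deficient minus control, was -3.40 (standard error 0.54, limma adjusted p = 0.251). The exact two-sided permutation test gave p = 0.10, the smallest value that 3 pools against 3 allow. The sources used here do not say whether the probe set lies in the deleted part of the gene.

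No probe set passed a limma adjusted p of 0.05 among the 19737 tested, those whose higher group median was at least 30. The share called was 0% in either direction, and the smallest adjusted p was 0.156, for *Timm10*. At an unadjusted p of 0.05, 533 probe sets (2.70%) had a positive difference and 726 (3.68%) a negative one, and 1083 and 1142 when the pool number entered the fit as a block. No call was made with the block (smallest adjusted p = 0.0853). Leaving out *Myc*-deficient pool 2 gave 1 call, *Myc* itself at -4.14 (adjusted p = 0.00605). Leaving out *Myc*-deficient pool 3 gave 10 lower calls (adjusted p = 0.0391 for each), which were *Myc*, *Timm10*, *Timm17b*, *Nhp2*, *Mcm3*, *Mcm7*, *Mki67*, *Cdca8* and 2 probe sets without a single gene symbol. Every difference below is therefore given as a description of these pools, with "without overlap" meaning that all 3 *Myc*-deficient signals lay on the same side of all 3 control signals. Over the 9512 genes tested, each by its brightest probe set, 683 (7.18%) were lower and 547 (5.75%) were higher without overlap, and the median difference was -0.03. A ratio of group medians over 2, the study's own threshold, was passed by 8.53% of probe sets downward and by 7.30% upward.

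The pools had the keratins of basal cells. *Krt5* had signals of 3556, 3681 and 3653 in control pools and 3346, 4671 and 3707 in *Myc*-deficient pools, and *Krt14*, its filament partner, ranged from 4376 to 7888 over the 6 pools. Neither of these markers, nor *Trp63*, which encodes the basal transcription factor p63, nor *Acta2*, smooth muscle actin, separated the groups (log2 differences 0.09, 0.41, 0.11 and 0.17). The luminal keratins *Krt8* and *Krt18* were measured in every pool as well, between 1148 and 2319, and their groups overlapped. Summed over 16 luminal genes on the array, the signal was 10712 to 12636 in control and 12330 to 16821 in *Myc*-deficient pools. *Epcam*, at 0.31, was the 1 luminal gene (6.67%) that was higher without overlap, near the 5.75% of all genes. Lower without overlap were 0, beside 7.18% of all genes. Of the 15 luminal genes tested, 9 differences were positive and 6 negative. A ratio of medians over 2 was passed by 2 upward and 4 downward, beside 5.6% and 9.33% of all genes tested. The dim *Elf5*, for one, had signals of 106, 9.70 and 91.6 in control and 32.5, 0.51 and 39.8 in *Myc*-deficient pools. The leukocyte antigen gene *Ptprc* was below 30 on all 6 arrays, as were 6 more of 17 leukocyte genes. The leukocyte sum was 215 to 967 in control and 646 to 786 in *Myc*-deficient pools. Fibroblast genes summed to 4876 to 5522 in control and 4912 to 7830 in *Myc*-deficient pools, and pericyte genes to 545 to 813 and 338 to 862. Adipocyte genes summed to 1224 to 3486 in control and 1534 to 4586 in *Myc*-deficient pools. Of these, *Fabp4* ranged from 1142 to 4206 while *Adipoq* was below 30 on all 6 arrays. Milk protein genes summed to 265 and 238 in the pools numbered 2 and to 851 or more in the others. The staining for the sort, per the study's methods, included antibodies to CD45 and CD31, which mark leukocytes and endothelium. The part of other cells in the gene groups below was not tested.

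Genes of the nucleolus, where ribosomal RNA is transcribed, cut and assembled with protein, were lower in *Myc*-deficient basal cells. Of 49 nucleolar ribosome biogenesis genes tested, 18 (36.7%) were lower and 0 were higher without overlap, beside 7.18% and 5.75% of all genes tested. The median log2 difference of these genes was -0.59, 46 of 49 differences were negative, and 0 passed limma's adjusted threshold. In pooled cells a smaller share of cells with a transcript and less of it per cell cannot be told apart. *Nhp2*, a core protein of the H/ACA particles that guide pseudouridylation, had signals of 687, 1109 and 1203 in control pools and 206, 170 and 474 in *Myc*-deficient pools, a difference of -1.86 (standard error 0.38, limma adjusted p = 0.420). *Dkc1*, the pseudouridine synthase of the same particles, had signals of 246, 195 and 528 against 56.0, 192 and 55.5. The distance between the groups was large for *Nhp2*, whereas control pool 2 and *Myc*-deficient pool 2 nearly met for *Dkc1* on this probe set. The 3 probe sets of *Dkc1* gave -1.60 to -1.06. A dimmer one had signals of 147, 147 and 182 against 67.1, 48.3 and 58.2. *Noc2l*, a nucleolar regulator of histone acetylation, had signals of 525, 694 and 651 against 184, 223 and 204, a difference of -1.54 (standard error 0.29, limma adjusted p = 0.294). A second probe set of *Noc2l* gave -0.26. *Grwd1*, a histone-binding factor of ribosome assembly, differed by -1.80 and *Pes1*, a subunit of the PeBoW complex that matures the large ribosomal subunit, by -1.55. *Ncl* (nucleolin), the abundant nucleolar RNA-binding protein, was named after its values were seen. Its groups overlapped, with signals of 2444, 3220 and 3254 against 2013, 2810 and 2225, and it was lower in each same-numbered pair.

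Enzymes that modify tRNA and rRNA took the same direction. Of 27 tested, 7 (25.9%) were lower and 0 were higher without overlap, beside 7.18% and 5.75% of all genes, with a median of -0.55. *Trmt61a*, the catalytic subunit of the methyltransferase for adenosine 58 of tRNA, had signals of 493, 471 and 536 in control pools and 113, 37.7 and 139 in *Myc*-deficient pools, a difference of -2.33 (standard error 0.41, limma adjusted p = 0.294). All 3 control pools lay close together and each *Myc*-deficient pool was well below them. *Trmt6*, which encodes the other subunit of that enzyme, differed by -0.67, also without overlap. *Dimt1*, a methyltransferase of small-subunit rRNA, differed by -1.48, but a second probe set gave 0.18. Of 21 genes in the list of aminoacyl-tRNA synthetases, which charge tRNAs with amino acids, 4 (19.0%) were lower without overlap. They were *Lars*, *Qars*, *Yars* and *Aimp2*, a non-catalytic member of the synthetase complex, at -0.70 to -0.53.

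**Figure D1:**
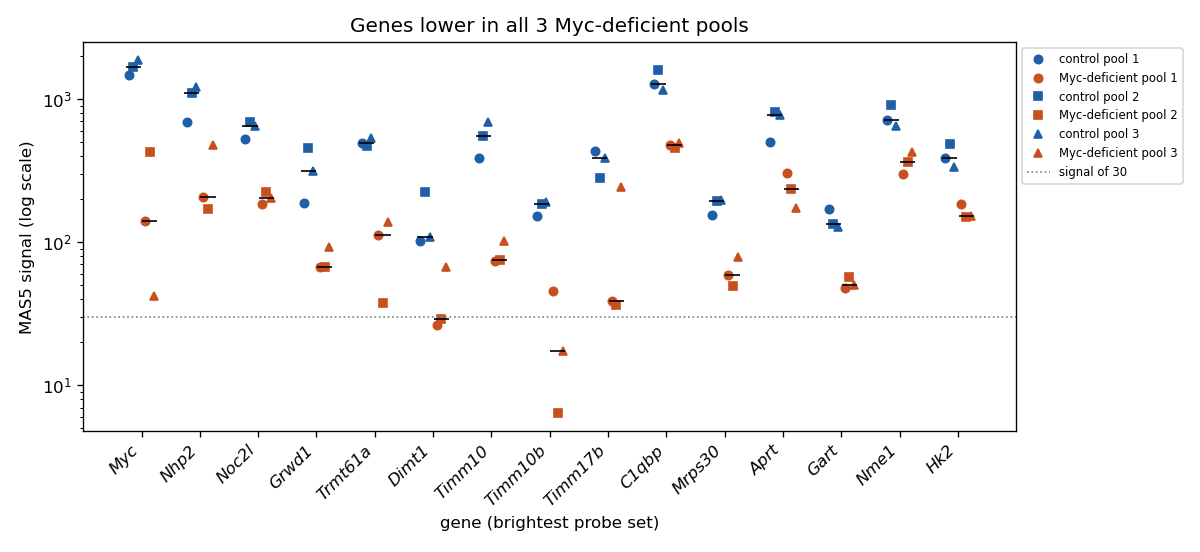
MAS5 signal (log axis) of 15 genes in each of the 3 control (blue) and 3 *Myc*-deficient (orange) basal cell pools, with marker shape giving the pool number, black lines the group medians and the dotted line a signal of 30. In each gene plotted, all 3 *Myc*-deficient pools lie below all 3 control pools, and *Myc* itself ranges from 42.3 to 428 among the deficient pools.

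Genes for the structural proteins of the ribosome had smaller differences, whose distance from those of the nucleolar genes was not tested. Of 29 genes of cytosolic ribosomal proteins, 1 (*Rpl14*, 3.45% of the list) was lower without overlap, at -0.92, beside 7.18% of all genes. Their median of -0.11 turned positive in 2 of 21 alternative settings. Within same-numbered pairs, 13 of the 29 (44.8%) were lower in all 3 pairs, beside 18.9% of all genes tested, and the pair means were -0.09, -0.31 and -0.10. Translation factors lay between, with 8 of 37 (21.6%) lower and 1 (2.70%) higher without overlap and a median of -0.13. *Eef1e1*, a scaffold protein of the synthetase complex, was the lowest of them, with signals of 159, 331 and 247 against 51.3, 71.2 and 92.6, a difference of -1.55. *Eif2b4*, a subunit of the exchange factor for eIF2, was the member that was higher, at 0.59.

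Genes of the mitochondrion were lower in several steps of its biogenesis. Of 30 genes for mitochondrial import and chaperones, 12 (40%) were lower and 0 were higher without overlap, beside 7.18% and 5.75% of all genes. Their median was -0.52. *Timm10*, an intermembrane-space chaperone that carries membrane proteins to the inner membrane, had signals of 387, 554 and 693 in control pools and 73.5, 75.6 and 101 in *Myc*-deficient pools. Its difference was -2.47 (standard error 0.34, limma adjusted p = 0.156), and the highest *Myc*-deficient signal was well under the lowest control signal. *Timm10b*, a relative in the same carrier pathway, had signals of 153, 184 and 191 against 45.4, 6.38 and 17.5, a difference of -2.42. All 3 probe sets of *Timm10b* were negative, at -2.42 to -1.55. *Timm17b*, a channel subunit of the inner-membrane translocase, had signals of 434, 282 and 388 against 39.0, 36.6 and 243. *Myc*-deficient pool 3 was thus near the controls for this gene, and a second probe set of *Timm17b* gave -0.60. *C1qbp*, a matrix protein needed for mitochondrial translation, had signals of 1265, 1596 and 1152 against 480, 452 and 491, a difference of -1.45 (standard error 0.25, limma adjusted p = 0.294). *Timm8a1*, another small chaperone of the intermembrane space, differed by -1.28.

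Mitochondrial ribosomal proteins and the respiratory chain divided the *Myc*-deficient pools. Of 66 mitochondrial ribosomal protein genes, 9 (13.6%) were lower and 2 (3.03%) higher without overlap, beside 7.18% and 5.75% of all genes. Their median was -0.46. Their mean difference from the control mean was -0.63 and -0.72 in *Myc*-deficient pools 1 and 2 and -0.07 in pool 3. *Mrps30*, of the small mitochondrial subunit, was low in all 3, with signals of 154, 195 and 196 against 59.3, 49.3 and 78.8. Of 67 respiratory chain genes, 61 had a negative difference (median -0.35) but 5 (7.46%) were lower without overlap, near the 7.18% of all genes. Same-numbered pools deviated together, and within pairs 28 of the 67 (41.8%) were lower in all 3, beside 18.9% of all genes, with pair means of -0.40, -0.57 and -0.08. The mean of these 67 genes was -0.62 and -0.50 in *Myc*-deficient pools 1 and 2 and 0.06 in pool 3, inside the control range of -0.21 to 0.14. With single pools other than *Myc*-deficient pool 3 left out, 6 to 16 of the 67 were lower without overlap, and without that pool 40 were. Pool 3 was the nearest to the controls in these same genes, so its removal was bound to raise the count. Groups also separate more easily with fewer pools, so these counts cannot be set beside the 7.18%. The 31 proteasome genes had means of -0.44 and -0.40 in pools 1 and 2 and 0.02 in pool 3.

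Nucleotide and amino acid metabolism had members that were lower in all 3 pools. *Aprt*, which salvages adenine, had signals of 501, 811 and 773 in control pools and 306, 234 and 173 in *Myc*-deficient pools, a difference of -1.49 (standard error 0.32, limma adjusted p = 0.444), and a second probe set gave -0.36. *Gart*, a trifunctional enzyme of purine synthesis, had signals of 171, 133 and 128 against 48.2, 57.0 and 49.9, and its 4 probe sets gave -1.58 to -1.21. *Prps2*, which makes the ribose precursor of nucleotides, had signals of 416, 264 and 471 against 150, 153 and 248. With *Aprt* and *Gart* it made up the 3 of 12 purine genes (25%) that were lower without overlap, beside 7.18% of all genes. *Nme1*, a nucleoside diphosphate kinase, differed by -1.03, although its other probe set gave 0.05. In the serine and folate list, 3 of 10 genes (30%) were lower without overlap. They were *Psat1* and *Psph* of serine synthesis at -1.29 and -0.89 and mitochondrial *Aldh1l2* at -0.51. *Hk2*, the inducible hexokinase of glycolysis, had signals of 390, 486 and 335 against 185, 149 and 151, a difference of -1.23 (standard error 0.31, limma adjusted p = 0.548). The 19 glycolysis genes as a whole had a median of -0.05, which turned positive in 2 of 21 alternative settings. *Odc1*, the first enzyme of polyamine synthesis and a classic Myc target, was named after its values were seen. Its signals were 4387, 4713 and 4035 in control pools and 3742, 5943 and 5454 in *Myc*-deficient pools, so that the groups overlapped, and 0 of 14 polyamine and methionine cycle genes differed without overlap. The difference of *Odc1*, 0.18, was -0.01 after quantile normalization.

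The cell cycle genes were lower by the largest list median, with pools that differed among themselves. Of 31 mitosis genes, 12 (38.7%) were lower without overlap, beside 7.18% of all genes, the median was -1.37 and all 31 differences were negative. The mean of the 31 genes was -1.78 and -1.79 in *Myc*-deficient pools 1 and 2 and -0.47 in pool 3, against -0.28 to 0.43 in control pools. *Myc*-deficient pool 3, in which the *Myc* signal was the lowest, thus had the mitotic signal nearest to the controls. *Mki67*, the Ki-67 antigen of cycling cells, had signals of 701, 949 and 691 in control pools and 136, 59.7 and 801 in *Myc*-deficient pools, pool 3 lying within the control range. *Cdca8*, borealin of the chromosomal passenger complex, had 475, 676 and 212 against 30.6, 11.2 and 468 (both genes were named after their values were seen). Of 32 DNA replication genes, 10 (31.25%) were lower without overlap, with a median of -0.63. Among them *Mcm7*, of the replicative helicase, had signals of 638, 847 and 547 against 129, 132 and 344, a difference of -1.79 (standard error 0.38, limma adjusted p = 0.444). *Cdk6*, a kinase of early G1, had signals of 181, 161 and 181 against 132, 12.9 and 22.2. Here *Myc*-deficient pool 1 was the one nearest to the controls.

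**Figure D2:**
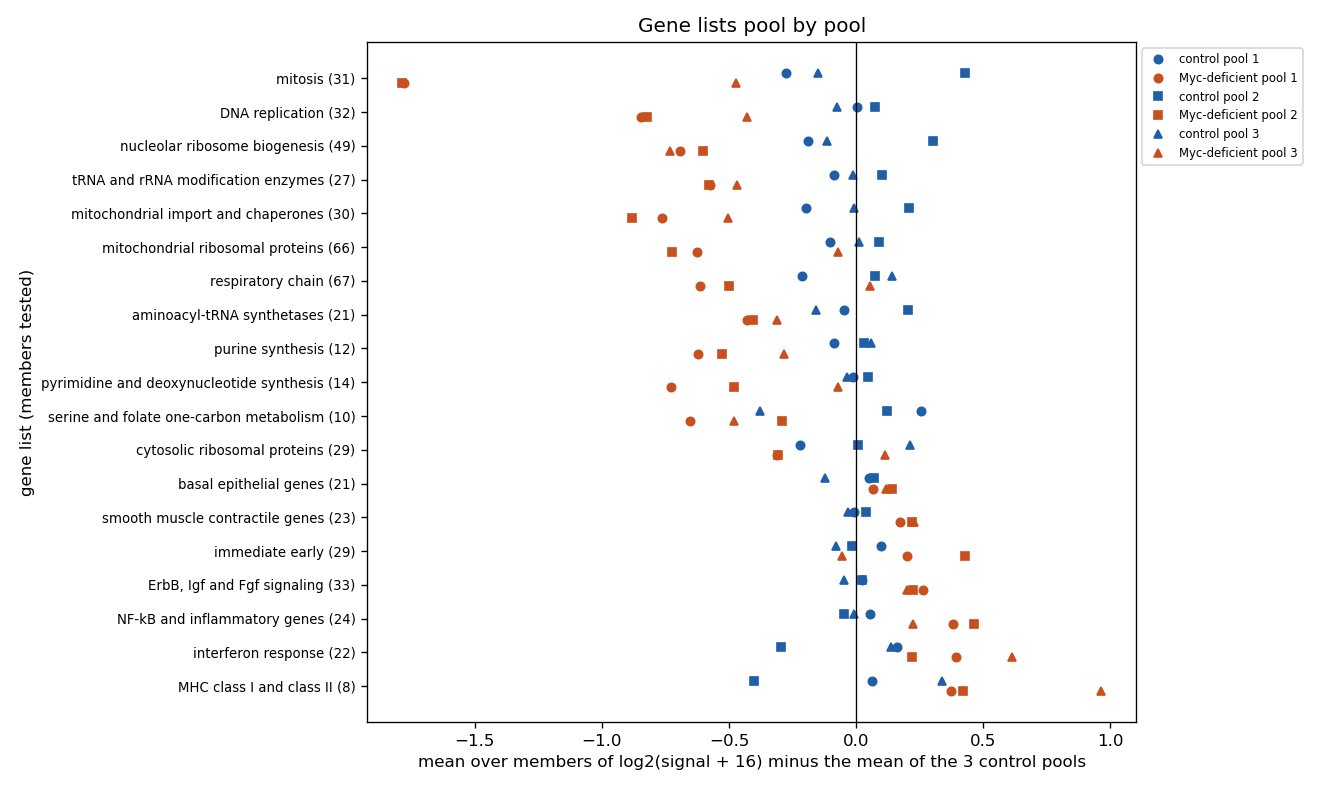
Mean over the tested members of 19 gene lists of log2(signal + 16) in each pool minus the mean of the control pools (horizontal axis), with control pools in blue, *Myc*-deficient pools in orange and marker shape giving the pool number. The nucleolar genes lie at -0.73 to -0.60 in the 3 *Myc*-deficient pools, while respiratory chain and mitosis genes separate pools 1 and 2 from pool 3.

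Set side by side, the lists had the following means in the *Myc*-deficient pools, and differences between lists were not tested. Nucleolar genes were at -0.69, -0.60 and -0.73 in pools 1, 2 and 3, tRNA and rRNA modification enzymes at -0.58, -0.58 and -0.47, and import and chaperone genes at -0.77, -0.88 and -0.51. Each of these 9 means was under every control pool, whose lowest values were -0.19, -0.09 and -0.20. Respiratory chain genes, mitochondrial ribosomal proteins and the proteasome were low in pools 1 and 2, and in pool 3 lay within the control range.

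E-boxes near the starts of these genes are shown because Myc and Max bind this word. In RefSeq promoter windows of GRCm38.p6, from 250 bases before to 50 bases after each start, CACGTG (its own reverse complement, so both strands are read at once) was present in 7.15% of 32851 windows. Of 7712 tested genes with a window, 12.2% had it in at least 1 window. Among genes lower without overlap the share was 12.0% (68 of 567), and among genes higher without overlap 11.0% (49 of 447), both near the share of all genes tested. The nucleolar list had it in 10 of 43 genes (23.3%) and the import list in 6 of 28 (21.4%). The lysosome list, whose genes are bound by the Tfeb family at an overlapping word, had it in 13 of 30 (43.3%). Among other lists with negative medians, the share was 28.6% for translation factors, 11.5% for DNA replication and 8.93% for the respiratory chain. Lists with positive medians also varied, with 25% for immediate early genes and 25% for ErbB, Igf and Fgf signaling. The share was 5% for smooth muscle contractile genes and 0% for interferon response. Mitosis genes, with the largest fall, had it in 1 of 24 (4.17%). A match describes the letters in the window and not binding. The windows below, 5′ to 3′ on the gene's strand with the E-box in capitals, are from 6 genes lower without overlap and described above, and were chosen as the E-box of each that is nearest to its start. *Timm8a1* and *Nme1* have a second E-box (positions -236 and -29 of their windows), and *Cdk6* and *Rpl14* have theirs farther out, at -220 and -168. They lie at chr2:84827037-84827066 (*Timm10*, plus strand), chr12:111678118-111678147 (*Trmt61a*, plus), chr7:45830740-45830767 (*Grwd1*, minus), chr11:3963965-3963994 (*Pes1*, plus), chrX:134541629-134541658 (*Timm8a1*, minus) and chr11:93968273-93968302 (*Nme1*, minus).
Timm10: ccggaagtgaccCACGTGcttcttatttcg
Trmt61a: ccgccgtggagcCACGTGtggagccgggag
Grwd1: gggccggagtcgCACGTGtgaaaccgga
Pes1: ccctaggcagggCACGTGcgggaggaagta
Timm8a1: ccgtcacccagaCACGTGaaggtcggcaag
Nme1: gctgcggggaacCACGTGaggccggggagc
In the first 5 of these the E-box begins 3 to 35 bases after the annotated start, and in *Nme1* at position -18.

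On the higher side, genes of the contractile apparatus of basal cells had the largest share among the lists of basal cell identity. Of 23 smooth muscle contractile genes, 7 (30.4%) were higher and 0 lower without overlap, beside 5.75% and 7.18% of all genes, with a median of 0.28. After quantile normalization 4 of 23 (17.4%) were higher without overlap, beside 5.65% of all genes in that setting, and the median stayed positive in all 21 alternative settings. *Tpm1*, a tropomyosin of actin filaments, had signals of 4465, 5096 and 4501 in control pools and 6211, 8332 and 6835 in *Myc*-deficient pools, a difference of 0.59 (standard error 0.17, limma adjusted p = 0.589). *Cnn1*, calponin of smooth muscle, had signals of 1632, 1737 and 1878 against 1915, 2675 and 2760, a difference of 0.47. The steps were small and the lowest *Myc*-deficient signal of *Cnn1* was just above the highest control signal. *Myl9*, *Mylk* and *Tpm2*, which form and drive the same filaments, differed by 0.31, 0.31 and 0.36. *Snai2*, the basal transcription factor Slug, had signals of 1525, 2288 and 1911 against 3490, 3699 and 3193, a difference of 0.87 (standard error 0.21, limma adjusted p = 0.484), and its 2 probe sets gave 0.83 and 0.87. With *Id4*, a basal inhibitor of helix-loop-helix factors at 0.48, it made up the 2 of 21 basal epithelial genes (9.52%) that were higher without overlap.

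Growth factor and Wnt genes lay on both sides of the controls. Of 33 ErbB, Igf and Fgf signaling genes, 6 (18.2%) were higher and 1 (3.03%) lower without overlap (median 0.25), beside 5.75% and 7.18% of all genes. *Igfbp4*, a secreted binder of insulin-like growth factors, had signals of 1053, 1130 and 1054 in control pools and 1997, 2064 and 2982 in *Myc*-deficient pools. Its difference was 1.09 (standard error 0.23, limma adjusted p = 0.444), and all 6 of its probe sets were positive, at 0.40 to 1.09. *Tgfa*, a ligand of the EGF receptor, had signals of 142, 127 and 97.4 against 271, 403 and 167. *Wif1*, a secreted Wnt inhibitor, had signals of 190, 230 and 122 against 493, 571 and 449, a difference of 1.44 (standard error 0.32, limma adjusted p = 0.450). Among the other Wnt genes, *Rnf43*, which removes Wnt receptors from the membrane, was higher at 0.87. The R-spondin receptor *Lgr5*, the receptor *Fzd8* and the modulator *Sfrp2* were lower at -0.88, -1.02 and -0.74. For *Fzd8* the groups nearly met, with signals of 178.4, 132.1 and 145.4 against 131.8, 98.8 and 17.0, *Myc*-deficient pool 3 being far the lowest. Over the 31 Wnt genes, 4 (12.9%) were higher and 3 (9.68%) lower without overlap, and the median was 0.01. *Hey1*, a Notch target, had signals of 1039, 846 and 942 against 474, 251 and 655 (difference -1.10). Of 13 Notch genes 2 (15.4%) were lower without overlap, *Hey1* and *Nrarp* (-0.65). As many were higher, the coactivator *Maml1* (0.85) and the receptor *Notch2* (0.36), and the median was 0.03. A second probe set of *Notch2* gave -0.28. *Ntrk3*, the receptor of neurotrophin 3, was in no list and was named after its values were seen, with signals of 1077, 757 and 825 against 1607, 2167 and 2195. Its 6 probe sets gave -0.29 to 1.47.

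**Figure D3:**
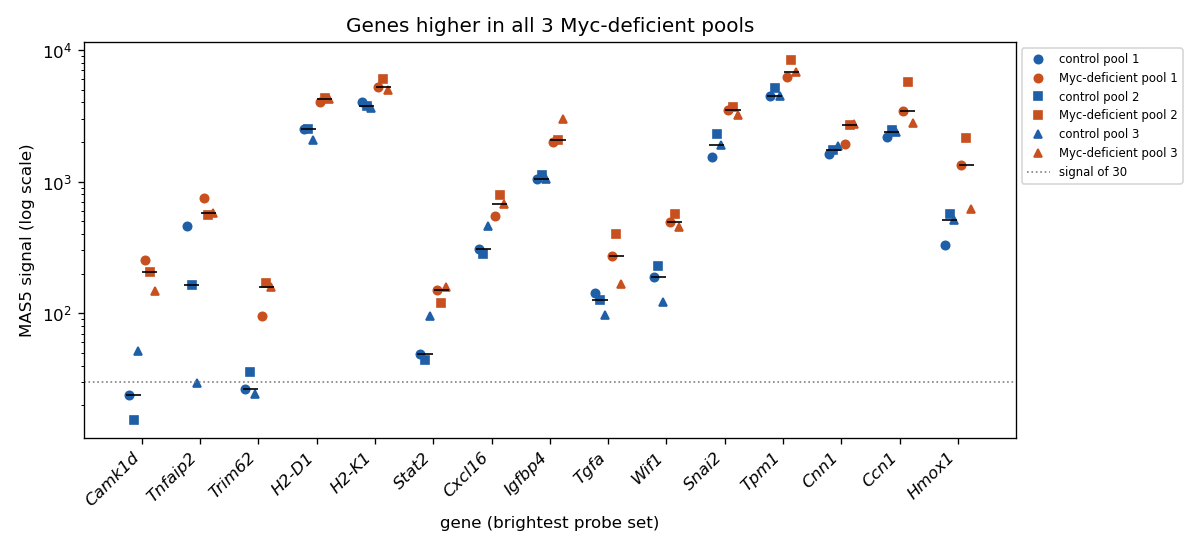
MAS5 signal (log axis) of 15 genes in each of the 3 control (blue) and 3 *Myc*-deficient (orange) basal cell pools, with marker shape giving the pool number, black lines the group medians and the dotted line a signal of 30. In each gene plotted, all 3 *Myc*-deficient pools lie above all 3 control pools, with narrow gaps for *Cnn1* and *Ccn1* and wide ones for *Camk1d* and *Wif1*.

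Antigen presentation, interferon and NF-kB genes were also more often higher than lower. All 8 tested genes of MHC class I and class II had a positive difference (median 0.58). Of these 2 (25%), *H2-D1* and *H2-K1*, were higher without overlap (1 after quantile normalization), beside 5.75% of all genes. *H2-D1*, a heavy chain of class I, had signals of 2487, 2528 and 2064 in control pools and 3989, 4317 and 4236 in *Myc*-deficient pools, a difference of 0.83 (standard error 0.18, limma adjusted p = 0.450). Its 5 probe sets gave 0.05 to 0.83, and probes of class I genes can share targets, so that the members cannot be fully told apart. Of 22 interferon response genes, 4 (18.2%) were higher and 0 lower without overlap (median 0.43). *Stat2*, of the complex that carries the interferon signal to DNA, had signals of 49.1, 43.7 and 94.4 against 151, 120 and 158, but on a dimmer second probe set the groups overlapped. Of 24 NF-kB and inflammatory genes, 5 (20.8%) were higher and 1 (4.17%) lower without overlap (median 0.40). Among the higher were the chemokines *Cxcl16* (0.94) and *Cxcl1* (0.49) and the NF-kB inhibitor *Nfkbia* (0.48). Of 29 immediate early genes, 6 (20.7%) were higher and 1 (3.45%) lower without overlap. After quantile normalization 3 (10.3%) were higher, beside 5.65% of all genes in that setting. *Ccn1*, a matricellular protein, had signals of 2187, 2484 and 2367 against 3414, 5691 and 2783, and its 4 probe sets gave 0.61 to 0.77. The mean of the immediate early genes was highest in *Myc*-deficient pool 2 (0.43) and was -0.06 in pool 3. Leukocyte markers stood beside these groups with 5 of 7 tested genes positive, 0 without overlap and a median of 0.26. *Lyz1*, a lysozyme gene outside that list, was higher at 1.96. *Lyz2*, a member of the list, overlapped, with signals of 95.8, 9.85 and 143 in control and 116, 202 and 147 in *Myc*-deficient pools. Control pool 2 was the lowest of the 6 pools in the means of the leukocyte (-1.06), MHC (-0.40) and interferon genes (-0.30). Control pool 3 had the highest leukocyte mean (1.12). The leukocyte pair means were 0.65, 1.06 and -0.64 in pairs 1 to 3. Those of MHC genes were 0.31, 0.82 and 0.62, and those of interferon genes 0.23, 0.52 and 0.48. A link between these groups was not tested.

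Stress and arrest genes gave a mixed picture. *Hmox1*, heme oxygenase 1, had signals of 329, 572 and 509 in control pools and 1339, 2135 and 623 in *Myc*-deficient pools, a difference of 1.38. *Nfe2l2*, which encodes its regulator Nrf2, differed by 0.48, while *Prdx2* (-0.77), *Tkt* (-0.55) and *Cat* (-0.30) of antioxidant metabolism were lower without overlap. These were the 2 higher (6.06%) and 3 lower (9.09%) of 33 Nrf2 and glutathione genes, near the shares of all genes. Of 19 p53 targets 5 (26.3%) were higher and 1 (5.26%) lower without overlap, beside 5.75% and 7.18% of all genes, with *Dram1*, of autophagy, at 0.90. *Cdkn1a*, the p21 inhibitor and a gene repressed by Myc in other cells, overlapped between groups, with signals of 2475, 3285 and 1511 against 3503, 5142 and 1926. It was named after its values were seen, and its pools numbered 3 were the lowest in both groups. Within same-numbered pairs its differences were 0.50, 0.64 and 0.35. Of 36 lysosome and autophagy genes 6 (16.7%) were higher without overlap (median 0.07), but after quantile normalization 2 (5.56%) were, near the 5.65% of all genes in that setting.

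The genes with the largest positive differences without overlap and a group median of at least 100 belonged to no single list. *Camk1d*, a calcium-dependent kinase, had signals of 24.0, 15.4 and 51.9 in control pools and 255, 207 and 148 in *Myc*-deficient pools, a difference of 2.29 (standard error 0.43, limma adjusted p = 0.294). Its 2 other probe sets gave 0.74 and -0.34. *Trim62*, a RING-finger ubiquitin ligase, had signals of 26.4, 35.9 and 24.4 against 95.5, 169 and 157, a difference of 1.77. *Tnfaip2*, induced by tumor necrosis factor, had signals of 458, 164 and 29.4 against 748, 557 and 582, with control pools that spread more widely than the gap between groups. The other members of these 10 were *Fam25c* (2.21), *Lyz1* (1.96), *Impact* (1.74), *Naa30* (1.72), *Parp3* (1.63), *Ubn2* (1.61) and *Rec114* (1.55). Second probe sets were lower, at 0.32 for *Impact*, 0.07 for *Naa30*, 0.19 for *Parp3*, 0.26 for *Ubn2*, 0.69 for *Rec114* and 1.48 for *Lyz1*. The 10 on the lower side were *Spc24* (-2.63), *Kif22* (-2.16), *Ube2c* (-2.15) and *Mcm3* (-2.10) of the cell cycle, *Dctpp1* (-2.35), which clears modified nucleotides, and *Ttf2* (at least 3.45-fold lower, being under 30 in every *Myc*-deficient pool), with *Myc*, *Timm10*, *Timm10b* and *Trmt61a* described above.

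Myc with its partners and relatives was tested by 13 genes. Without overlap, *Myc* itself was lower (7.69%) and *Mycn* higher (7.69%), near the 7.18% and 5.75% of all genes. *Mycn* encodes N-Myc, which can act in place of Myc, and had signals of 65.9, 28.3 and 49.2 in control pools and 109, 66.2 and 266 in *Myc*-deficient pools. Its difference was 1.21 (standard error 0.49, limma adjusted p = 0.755), with pool 3, lowest in *Myc*, the highest in *Mycn*, but a second probe set gave -0.05. The obligate partner *Max* had signals of 72.9, 237 and 164 against 197, 160 and 151. For *Max*, as for the antagonists *Mxd1*, *Mxd3*, *Mxd4*, *Mxi1* and *Mnt*, the groups overlapped, and *Zbtb17*, which encodes Miz1, overlapped too. *Pvt1*, a non-coding RNA gene beside *Myc* that was named after its values were seen, had signals of 319, 308 and 121 against 696, 325 and 713. Its difference was 1.19 (standard error 0.42, limma adjusted p = 0.709), and the 2 pools numbered 2 were close to each other on this probe set. The 5 probe sets of *Pvt1* gave 0.35 to 1.91. On the one with 1.91, the pools numbered 2 had 32.8 in control and 241 in *Myc*-deficient cells.

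**Figure D4:**
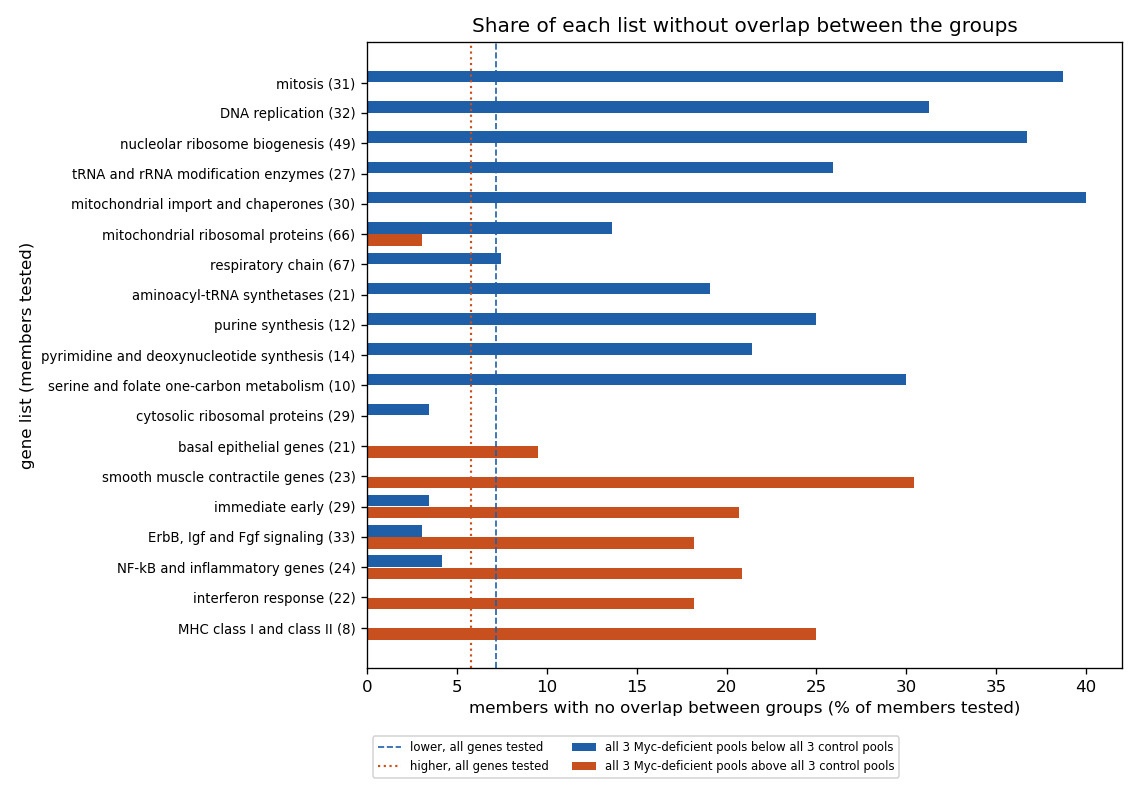
Share of the tested members of 19 gene lists (number tested in parentheses) whose 3 *Myc*-deficient signals lie all below (blue) or all above (orange) the 3 control signals, as a percentage of members tested. The dashed and dotted lines mark the shares over all 9512 genes tested, 7.18% lower and 5.75% higher, and import and chaperone genes reach 40% lower while smooth muscle genes reach 30.4% higher.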

How the data were processed

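RNA of 6 pools of sorted mammary basal cells was measured on arrays of 45101 probe sets. The values are intensities, MAS5 signals that the authors computed before deposition. The submitters' processing notes name MAS5 and Affymetrix Expression Console, with no version, and scaling every array to one target hides any change in total RNA per cell. The 64 control probe sets did not enter, and 45037 remained. GEO's platform annotation gave 1 gene symbol for 34945 of them, several for 932 and none for 9160, and genes were named from probe sets with 1 symbol. Detection limits precision here: 38.5 to 42.8% of probe sets had a signal of at least 30, the background value of the study, and with 3 arrays per group the number of arrays limits precision too. Median signals were 13.2 to 18.8 in control and 15.0 to 19.7 in *Myc*-deficient pools. Arrays correlated at 0.828 to 0.889 (Spearman), and none were identical.

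Log2(signal + 16) was tested with limma 3.58.1 (trended eBayes) in R 4.3.3 over probe sets whose higher group median was at least 30, with Benjamini-Hochberg adjustment over all of them. Tissue arrays of the series, labelled with another kit, did not enter. The fit was tested on simulated data. Each gene was taken by its brightest probe set. P-values measure the spread between pools. A fold written "at least" sets the geometric mean of the control signals against a signal of 30.

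Same-numbered pools deviated together from their group means (r = 0.221, 0.231 and 0.259 over 19737 probe sets). Other pairs gave -0.195 to -0.040, but with deviations taken from group means, positive values for same-numbered pairs push the others negative. The pool number, which labels give in both groups, was therefore also used as a block. Genes named in the text are *Myc* and its network, the 10 largest differences without overlap in each direction at a group median of at least 100, up to 5 per list and the defining markers, besides those said to be named after their values were seen. The members and gene lists were chosen with earlier results of these data known. Promoter windows are RefSeq's, of GRCm38.p6, and 27025 genes had one. Alternatives covered the offset, a floor, the filter, quantile normalization, median centring, the block, an unmoderated test, the trend, the probe set per gene, and pools or pairs left out.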

Additional observations from a re-analysis of the deposited data

How the results depend on the processing

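With limma, 0 probe sets were called under each alternative that kept all 6 pools, with and without the replicate block, and with an unmoderated test. The lower calls ranged from 0 to 10 when single pools were left out, and the higher calls stayed at 0. Probe sets at an unadjusted p of 0.05 numbered 533 higher and 726 lower in the main setting, 1254 and 1090 with no filter, 320 and 468 at a median of at least 100, and 1083 and 1142 with the replicate block. The unmoderated test gave 475 lower. They ranged from 414 to 927 higher and 494 to 1145 lower with single pools left out (the highest counts without *Myc*-deficient pool 3), and were 294 and 403 without the pair numbered 1 and 344 and 430 without the pair numbered 2. A median ratio over 2 was passed by 1441 probe sets upward and 1684 downward, and a ratio over 4 by 240 and 280. With single pools left out these numbers ranged from 1106 to 2192 and from 1101 to 2516. The cause of these shifts was not tested, apart from the fewer or more probe sets and pools that each setting holds.

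Of 189 named genes, 12 had a difference that turned its sign under 1 or more of 21 alternatives (30 of 3939 values). For some of them a turned value was as large in size as the differences given for *Myl9* or *Mylk* (0.31). These were *Max* (-0.32), *Mga* (-0.33) and *Zbtb17* (0.32). After quantile normalization *Krt5* was -0.039, *Odc1* -0.012 and *Mxd4* 0.0093, and *Mxd4* was 0.039 with median centring. With the mean of all probe sets of a gene, *Lamb1* was -0.022, *Mga* -0.33 and *Mxd4* 0.062. With single pools left out, *Acta2* ranged from -0.046 to 0.34, *Krt5* from -0.043 to 0.20, *Max* from -0.21 to 0.54, *Mga* from -0.12 to 0.32, *Mxd1* from -0.77 to 0.034, *Mxd3* from -0.47 to 0.073, *Mxd4* from -0.16 to 0.073 and *Zbtb17* from -0.23 to 0.17. Without the pair numbered 1, *Max* was -0.32, *Mxd3* 0.25, *Mxd4* 0.15 and *Zbtb17* 0.32. Without the pair numbered 2, *Krt5* was -0.033, *Mga* -0.0024, *Mxd1* 0.17 and *Trp63* -0.019. Without the pair numbered 3, *Mga* was -0.0019 and *Mxi1* 0.21. The pair-wise alternatives were chosen after seeing the data. With 3 pools a group, and signals near the background for genes such as *Dimt1* or *Timm10b*, differences of the size of the pool spread could not be resolved.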
